A study of Mus musculus with 4 samples.

Results

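The genes described here encode the nuclear-made parts of the mitochondrial respiratory chain and of ATP synthase, with their dedicated assembly factors. They were chosen by symbol, as genes with at least 1 transcript annotated as protein-coding whose symbol begins with Nduf, Sdha to Sdhd, Uqcr, Cox4 to Cox8 or Atp5, leaving out symbols marked as pseudogenes with -ps. The rule found 98 genes under 97 symbols, of 21901 genes with a protein-coding transcript. The symbol Atp5o has 2 gene entries on chromosome 16, and the longer entry (91684398 to 91926982, mm10) had 0 counts in all 4 libraries. By role, 44 members belong to complex I by symbol or assembly, 8 to complex II, 8 to complex III, 20 to complex IV and 18 to ATP synthase. Ndufa4 and its relative Ndufa4l2, named for complex I, are counted among the 20 of complex IV.

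PolyA-selected RNA of inflammation-experienced regulatory T cells, CD4 T cells that hold immune responses in check, was sequenced in 4 libraries. The labels give a male adult mouse of 6 months, strain Foxp3CreERT2 x Rosa26YFP, and primary cells whose stated origin is a bone marrow hematopoietic cell. This design drives an inducible Cre from Foxp3 and places a fluorescent reporter at Rosa26. All libraries carry the same biological replicate number, 1, and the same donor, with technical replicate numbers 1 to 4, so every spread and p-value below is between libraries of 1 sample and may be technical. The labels name no other group, so no condition is compared.

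Complex I passes electrons from NADH to ubiquinone, complex II passes them there from succinate, complex III hands them to cytochrome c and complex IV to oxygen. Complexes I, III and IV pump protons, and ATP synthase uses the return flow of protons to make ATP. Regulatory T cells are known to rely on oxidative phosphorylation more than effector T cells do. Every complex except complex II also holds subunits encoded by mitochondrial DNA, so nuclear and mitochondrial genes have to be expressed side by side.

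Levels are in TPM, an abundance unit that adjusts for gene length and sums to the same total in every library, taken from a gene table built on an alignment to transcripts. Tests between libraries use the expected counts of the same table, estimates of how many reads each gene owns. Annotated genes took 6648385 expected counts in library 4, the shallowest, and 9284432 to 9341328 in the other libraries. The members took 0.869% to 0.951% of these counts. All 7 listed markers of regulatory T cells reached 10 TPM in all libraries, and their list median was 314 ± 29.1 TPM (mean ± SD over the 4 library medians). Foxp3 stood at 20.3, 21.7, 32.8 and 36.4 TPM in libraries 1 to 4. Markers of red cell precursors had a median of 160.2 TPM in library 1, whereas the median was 0.700 in library 2, 4.10 in library 3 and 2.60 in library 4. B cell markers had library medians of 23.1, 10.3, 8.16 and 20.4 TPM, plasmacytoid dendritic cell markers 14.2, 9.55, 8.32 and 11.9, and myeloid markers 2.81, 0.0900, 0.375 and 1.25. The plasmacytoid dendritic cell list was split. Siglech had 0.850, 0, 0.200 and 0 TPM and Klk1 1.93, 0, 0 and 0.320. The median of that list rested on Ccr9, Ly6d, Irf8 and Tcf4, with means of 36.1, 24.9, 15.6 and 8.02 TPM. The medians of muscle and testis markers were 0 in every library.

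Genes for the subunits themselves were expressed far above the typical gene. In bulk RNA, fewer cells that use a gene and less RNA per cell cannot be told apart. The members together made up 2.15%, 2.25%, 2.31% and 2.32% of all TPM of nuclear coding genes in libraries 1 to 4. Of the 98 members, 86 reached 10 TPM in all 4 libraries, against a background of 28.2% of 21888 nuclear coding genes, and 61 reached 100 TPM. The typical nuclear coding gene with a mean of at least 1 TPM had a library median of 19.3, 15.99, 18.4 and 17.9 TPM. Of the 12 members under the 10 TPM line, 8 are the tissue forms of complex IV subunits, 1 is the unused Atp5o entry and the others are the assembly factor genes Ndufaf6, Sdhaf1 and Sdhaf3.

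**Figure D1:**
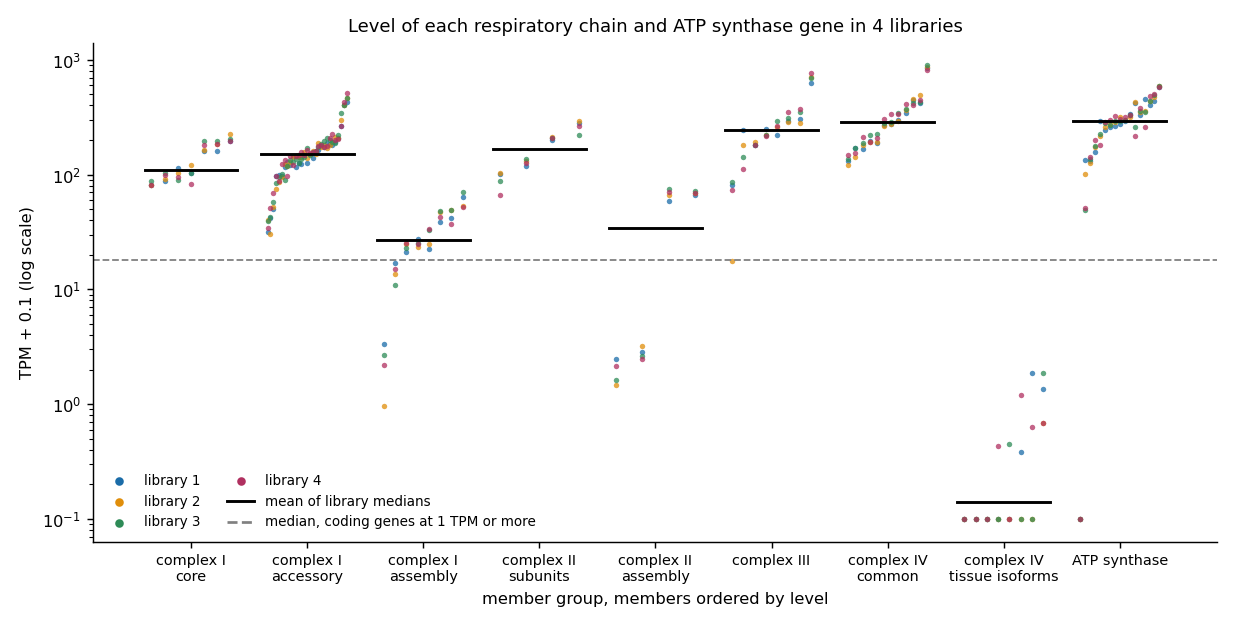
Level of each member (TPM + 0.1, log scale) in each of 4 libraries, by complex and role, with the mean of library medians as a bar for each role and the median of nuclear coding genes at 1 TPM or more as a dashed line. Subunit genes lie mostly between 36 and 858 TPM, assembly factors lower, and the tissue forms of complex IV at or near 0.

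The order of the complexes by median TPM per gene (mean ± SD of 4 library medians) placed ATP synthase at 295 ± 4.68 and the common complex IV subunits at 287 ± 24.1. Complex III followed at 245 ± 7.17, complex II at 167 ± 5.92, the accessory subunits of complex I at 149 ± 5.35 and its core subunits at 109 ± 9.62. The library medians of ATP synthase were 290.04, 301, 293 and 298 and those of the common complex IV subunits 271, 271, 283 and 322. These 2 ranges overlap, whereas the library medians of complexes III, II and both parts of complex I did not overlap with each other. The order depended on the quantification. The other 2 quantifications are the direct table, made from the reads and an index, and length-scaled counts on an older annotation. In these the accessory complex I genes (175.0 and 272.0) were above complex II (142.1 and 216.6). In the direct table the common complex IV subunits were highest at 390.6, and complex III (326.9) was above ATP synthase (296.5). In the length-scaled counts ATP synthase stayed highest at 425.5, and complex III (363.2) was above the common complex IV subunits (319.7). The complex I core had the lowest median of the subunit groups in all 3. Assembly factors formed a lower tier, with medians of 34.5 ± 2.87 for complex II and 27.03 ± 2.57 for complex I.

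The 7 nuclear core subunits of complex I carry its flavin and iron-sulphur clusters. Within this set Ndufs7, part of the site where ubiquinone binds, was highest at 197, 225, 203 and 197 TPM in libraries 1 to 4. Ndufs1, the large iron-sulphur subunit of the NADH-oxidising arm, was lowest in the gene table at 81.3, 81.8, 87.8 and 81.2 TPM. The ranges of these extremes do not overlap, and the whole set spans only 2.47-fold in mean TPM.

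Among the other core genes, the iron-sulphur subunit gene Ndufs8 stood at 180.1 ± 14.04 TPM (SD, n = 4, here and below for values written with ±) and Ndufv2, another iron-sulphur subunit of the NADH arm, at 175 ± 15.8 TPM. Ndufv1, which holds the flavin that takes electrons from NADH, had 103, 119.95, 103 and 82.99 TPM. Library 2 was highest and library 4 lowest for Ndufv1. Ndufs3, a subunit of the peripheral arm, was at 94.8 ± 6.70 TPM, and its range over libraries overlapped that of Ndufv1.

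The 29 accessory subunits surround the core and are needed for assembly and stability. They ranged 12.9-fold in mean TPM, and all of them reached 10 TPM in every library. Ndufa3 (chromosome 7, 3617373 to 3620327, mm10), a small membrane-arm subunit, was highest at 425, 466, 461 and 514 TPM, and Ndufa6, a subunit of the LYR family, followed at 401, 405, 403 and 426 TPM. By TPM, library 4 of Ndufa6 stood above the other 3 libraries, which lay within 4 TPM of each other. As a share of counts (CPM), library 2 was highest for Ndufa6, at 147 against 137 in library 4. The lowest accessory gene by mean was Ndufb4 at 31.4, 39.8, 38.95 and 34.5 TPM. Its level, and so the 12.9-fold range, depends on a copy described below that is identical over the coding part. Ndufb4 and this copy together had a mean of 251 TPM. Ndufab1, the mitochondrial acyl carrier protein, which also serves fatty acid synthesis, stood at 124, 143, 138 and 157 TPM, and Ndufa5 of the peripheral arm at 116, 146, 137 and 144 TPM. Of the 29 genes, 21 reached 100 TPM in all libraries.

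The 8 members named as assembly factors of complex I work on the complex without staying in it. The highest was Ndufaf8 at 63.2, 53.1, 70.2 and 51.9 TPM. Ndufaf7, a methyltransferase, stood at 44.2 ± 6.08 TPM, close to Ndufaf3 at 44.2 ± 4.49 TPM. The lowest was Ndufaf6 at 3.22, 0.860, 2.57 and 2.10 TPM, on a mean of 9.25 counts, too few for the test between libraries. The set spans 27.2-fold, wider than the core or accessory subunits.

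Complex II, the only complex that also works in the citric acid cycle, is encoded by 4 nuclear genes. Sdha, the flavoprotein that oxidises succinate, had 283, 290.2, 221 and 265 TPM. Sdhb, the iron-sulphur subunit, had 198, 211, 209 and 208 TPM. Library 3 was low for Sdha but not for Sdhb, and Sdha was above Sdhb in all 4 libraries. The membrane anchors were lower, with Sdhd at 119, 131, 135 and 126 TPM and Sdhc at 101, 102, 87.1 and 66.4 TPM. Sdhd exceeded Sdhc in every library, and Sdhc was lowest in library 4. Of the assembly factors, Sdhaf2, which helps attach the flavin to Sdha, stood at 66.4, 69.1, 71.8 and 69.2 TPM and Sdhaf4, a chaperone of Sdha, at 58.3, 65.7, 74.8 and 69.9 TPM. The factors that serve the iron-sulphur subunit were much lower, Sdhaf1 at 2.38, 1.37, 1.53 and 2.07 TPM and Sdhaf3 at 2.73, 3.10, 2.53 and 2.37 TPM.

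The 8 nuclear members of complex III split into large and small subunits. Uqcrh, the hinge protein that helps cytochrome c1 meet cytochrome c, was highest at 629.6, 714, 689.5 and 759.9 TPM. The other small subunits were Uqcr10 at 328 ± 42.9 TPM, Uqcrb at 310.1 ± 27.00 TPM, Uqcrq at 258 ± 29.7 TPM and Uqcr11 at 226 ± 14.6 TPM. Uqcr10 and Uqcrb were not separated beyond their spread, and Uqcr10 was above Uqcrq in all 4 libraries.

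The large core proteins of complex III were close in mean level but not in pattern. Uqcrc2 had 182, 191, 181 and 182 TPM, all within 10 TPM. Uqcrc1 had 244, 179, 142 and 113 TPM, so that it was above Uqcrc2 in library 1 and below it in the other libraries. Uqcrfs1, the Rieske iron-sulphur protein that makes the first electron transfer from ubiquinol, was lowest in the complex at 80.7, 17.6, 85.3 and 72.7 TPM. Library 2 stood far below the other 3 libraries for Uqcrfs1 (chromosome 13, 30540308 to 30545362, mm10), while it was the highest library for Uqcrc2.

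All 12 common subunit genes of complex IV exceeded 100 TPM in every library. Cox4i1 (chromosome 8, 120668222 to 120674207, mm10), the form of subunit 4 present in most tissues, was the highest member of all, at rank 133 of the nuclear coding genes, with 849.8, 866, 894 and 821 TPM. Cox7a2l, a relative of Cox7a2 that joins complexes III and IV into supercomplexes, was next by mean in the gene table at 416, 492, 429 and 448 TPM, and Cox6a1 stood at 432 ± 23.1 TPM. Next in the order were Cox6c at 374 ± 30.03 TPM, Ndufa4 at 319 ± 27.98 TPM, Cox6b1, which faces cytochrome c, at 294 ± 31.4 TPM and Cox7c at 281 ± 17.2 TPM. Ndufa4 was first assigned to complex I and later found in complex IV. The lower end held Cox8a at 204 ± 17.9 TPM, Cox5b at 201 ± 14.3 TPM, Cox7a2 at 188 ± 17.9 TPM, Cox5a at 158 ± 13.5 TPM and Cox7b at 134 ± 11.4 TPM. Cox7b, the lowest in the gene table, had 131, 121, 137 and 148 TPM. In the direct table Cox7b was at 353 and Cox5a lowest at 154, and in length-scaled counts on the older annotation Cox7a2l was lowest at 134.

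The 8 genes for tissue forms were near or at 0. Cox4i2, a form of lung and of low oxygen, had 0, 0, 0 and 0.330 TPM, resting on 1 count in library 4. The heart and skeletal muscle forms were Cox6a2 at 0.280, 0, 0 and 1.09 TPM and Cox7a1 at 1.26, 0.580, 1.78 and 0.590 TPM, the latter being the only tissue form above 0 in every library. The testis forms were Cox6b2 at 1.76, 0, 0 and 0.530 TPM and Cox7b2 at 0, 0, 0.350 and 0 TPM. Cox8b of muscle, Cox8c of testis and Ndufa4l2, induced by low oxygen, had 0 counts in all 4 libraries. A count of 0 allows up to 3 counts, or 0.451 CPM (a share of the library's counts) in the shallowest library, for counting error only. Adjusted for gene length, 3 counts in library 4 are 2.90 TPM for Cox8b, 1.92 for Cox8c and 0.926 for Ndufa4l2. Against these TPM limits, taken per library, Cox8a was at least 72.2-fold higher than Cox8b and at least 108.9-fold higher than Cox8c. Ndufa4 was at least 367-fold higher than Ndufa4l2.

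On the log2(TPM + 0.1) scale, the common form exceeded its tissue form by 12.54 ± 1.09 for Cox4i1 over Cox4i2, by 10.70 ± 1.78 for Cox6a1 over Cox6a2, by 9.80 ± 2.06 for Cox6b1 over Cox6b2 and by 9.84 ± 1.07 for Cox7b over Cox7b2. Cox7a2 exceeded Cox7a1 by 7.48 ± 0.80. These sizes depend on the added 0.1, since most of the tissue forms are listed at 0 in at least 1 library. All of these pairs pointed the same way in 4 of 4 libraries, which is the limit of the two-sided exact sign-flip permutation test (p = 0.13, the smallest 4 libraries can give), so no pair can be called.

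**Figure D2:**
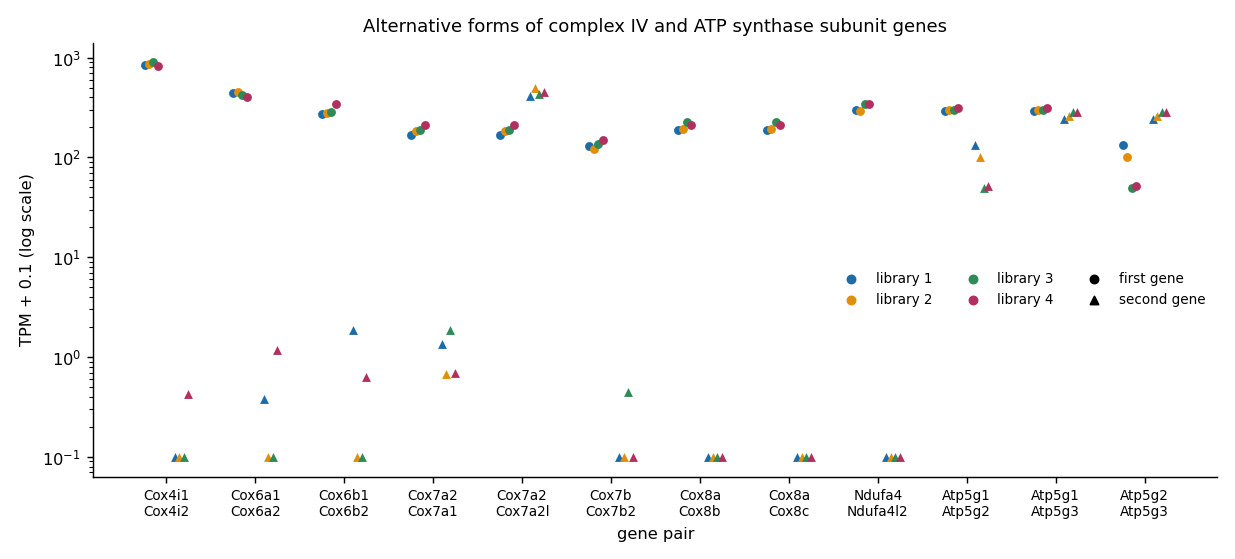
TPM + 0.1 (log scale) of both genes of each pair of alternative subunit genes in 4 libraries, circles for the first gene and triangles for the second. Tissue forms of complex IV lie at or under 1.78 TPM, whereas the pairs of c subunit genes of ATP synthase lie within a 10-fold band.

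Cox7a2 and Cox7a2l, both measured well above 0, were ordered the other way round. The log2 ratio of Cox7a2 to Cox7a2l was -1.25 ± 0.15 with 0.1 TPM added, negative in 4 of 4 libraries (exact sign-flip permutation p = 0.13). With length-scaled counts on the older annotation the same ratio was 1.24, with Cox7a2 above Cox7a2l, so the direction depends on the quantification.

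ATP synthase has a catalytic F1 part in the matrix and a proton-conducting Fo part in the membrane. Of the F1 genes, Atp5c1 for the rotating gamma shaft had the highest mean in the gene table, with 439, 474, 495 and 507 TPM, and the small epsilon subunit Atp5e stood at 407, 433, 442 and 487 TPM. By TPM, library 1 was lowest and library 4 highest for both. By CPM, library 2 was highest, at 415 for Atp5c1 and 99.1 for Atp5e, against 394 and 98.7 in library 4. In library 1 Atp5b was above Atp5c1, and in the direct table Atp5e (651 TPM) was above Atp5c1 (407). The catalytic beta subunit Atp5b had 459, 358, 351 and 262 TPM and the alpha subunit Atp5a1 421, 431, 258 and 216 TPM. Both were low in library 4, and Atp5a1 was high in libraries 1 and 2 and low in libraries 3 and 4 with no overlap. The delta subunit Atp5d had 294, 218, 225 and 181 TPM, highest in library 1 and lowest in library 4 as for Atp5b.

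In the stalk and membrane part, Atp5h (chromosome 11, 115415689 to 115419962, mm10), the d subunit of the stator, was the highest ATP synthase gene in the gene table at 578, 593, 589 and 585 TPM, a tight set with an SD of 6.38. Atp5e was above Atp5h (634 TPM) in the direct table, and Atp5c1 (791) was above Atp5h (734) in length-scaled counts on the older annotation. The other stalk genes were Atp5j, coupling factor F6, at 329 ± 7.91 TPM, Atp5o, the OSCP subunit, at 298 ± 15.9 TPM and Atp5f1, the b subunit, at 275 ± 16.7 TPM. The small membrane subunits were Atp5l (g) at 355 ± 21.3 TPM, Atp5j2 (f) at 293 ± 24.4 TPM, Atp5mpl at 177 ± 17.1 TPM and Atp5k (e) at 134 ± 6.42 TPM. Atp5s, a factor related to coupling factor B that is not a classical subunit, was at 11.2 ± 0.615 TPM.

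The c subunit forms the ring that turns as protons pass, and 3 genes encode it. Their products differ in the leader that is cut off on import, while the last 77 codons before the stop encode identical amino acids in all 3 genes. The first 60 bases of that shared part are shown from GENCODE M21 (mm10), as the c ring is the part of the chain with interchangeable genes, and because reads from these genes have to be told apart by such differences. Capitals mark bases that differ from Atp5g1, with all sequences 5′ to 3′ in the direction of the gene.
Atp5g1: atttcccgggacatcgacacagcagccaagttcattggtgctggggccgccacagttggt
Atp5g2: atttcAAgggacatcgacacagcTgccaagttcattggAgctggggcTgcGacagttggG
Atp5g3: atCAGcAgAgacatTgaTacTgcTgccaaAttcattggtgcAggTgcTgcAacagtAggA

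In these 60 bases Atp5g2 differs from Atp5g1 at 7 positions and Atp5g3 at 16, and in the 234 bases of the shared part including the stop at 36 and 50. The genes lie on chromosomes 11 (Atp5g1, 96068852 to 96075670), 15 (Atp5g2, 102662864 to 102672352) and 2 (Atp5g3, 73908447 to 73911326). Atp5g1 had 290.04, 301, 297 and 314 TPM and Atp5g3 243, 259.8, 283 and 284 TPM, while Atp5g2 had 133, 102, 48.8 and 51.1 TPM. Atp5g1 exceeded Atp5g3 by 0.17 ± 0.08 on the log2(TPM + 0.1) scale in 4 of 4 libraries, and that ratio was -0.38 with length-scaled counts on the older annotation. The log2 ratio of Atp5g1 to Atp5g2 was 1.98 ± 0.75 and that of Atp5g2 to Atp5g3 was -1.81 ± 0.83. In the gene table Atp5g2 was lower in libraries 3 and 4 than in libraries 1 and 2, and its values depend on a copy described below. This order of libraries was not shared by the other quantifications. There library 1 was the lowest for Atp5g2, at 35.9 CPM in the direct table and 62.4 in counts on the older annotation. Atp5g2 was also closer to Atp5g1 there, at 127 against 254 TPM in the direct table and 204 against 318 in length-scaled counts.

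Most members differed between the libraries, as did most genes. Of 13045 genes with a mean of at least 10 counts, 68.4% changed in their share of counts between libraries (likelihood ratio chi-square test of a Poisson model, Benjamini-Hochberg adjusted p at 0.05 over all of them). Of the 88 members tested, 60 passed, a share of 68.2%, which is near the background. By role these were 6 of 7 core and 18 of 29 accessory genes of complex I, 3 of 7 assembly factors, 4 of 4 complex II genes and 2 of 4 complex II assembly factors. In complex III 7 of 8 passed, in complex IV 7 of 12 common genes and in ATP synthase 13 of 16.

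The differences were small for most members. The median span from the lowest to the highest library was 0.31 on the log2 scale of CPM, each gene's share of the library's counts, over the members tested, against 0.58 over all tested genes. It was 0.53 over nuclear coding genes with a mean of at least 1 TPM. Members also had more counts, with a median of 585 over all members against 200 over all tested genes. Counting error widens the span of genes with few counts, and its part in this difference was not tested. Only 4 members passed with a span of at least 1, Uqcrfs1, Uqcrc1, Atp5a1 and Atp5b, against 15.7% of all genes tested that did so. Of the nuclear coding genes with a mean of at least 1 TPM, 1210 of 10334 tested did so. With TMM-scaled libraries Uqcrfs1 had 75.3, 18.6, 79.6 and 68.3 CPM in libraries 1 to 4, a span of 2.10 (adjusted p = 1.73e-94). Uqcrc1 had 276, 229, 159 and 124 CPM, a span of 1.15 (adjusted p = 6.81e-124), and Atp5b 479, 448, 326 and 237 CPM, a span of 1.02 (adjusted p = 1.8e-176). Atp5a1 had 724, 833, 447 and 377 CPM, a span of 1.14. Atp5g2, the next called member by span, was at 0.95 (adjusted p = 5.14e-18). Its span was 0.81 in the direct table and 0.44 in the counts on the older annotation, with library 1 lowest in both.

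The 4 members with a span of at least 1 were called in all 3 quantifications, and are among 50 members called in all 3 of 87 tested. The 3 quantifications are of the same libraries, and this count was not made over all genes. Without library 2 the span of Uqcrfs1 was 0.23 (adjusted p = 0.0421), so its difference rests on the low value in library 2. The span of Atp5b was 0.54 without library 4, in which that gene was lowest, and it was still called (adjusted p = 4.69e-61). Without library 4 the spans of Uqcrc1 and Atp5a1 were 0.78 and 0.86, and both were still called. In the direct table Uqcrfs1 had 72.0, 18.4, 68.4 and 60.3 CPM, and in the counts on the older annotation 116, 29.1, 129 and 115. Library 2 was low by a similar factor in all 3. Uqcrc1 spanned 1.14 and 0.91 in those other tables and Atp5a1 1.03 and 1.01. Atp5b spanned 0.97 and 0.82 there, below 1 in both. Cyc1, the cytochrome c1 gene of complex III, which the symbol rule does not cover, had 111, 94.2, 68.1 and 51.01 TPM, highest in library 1 and lowest in library 4 like Uqcrc1.

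**Figure D3:**
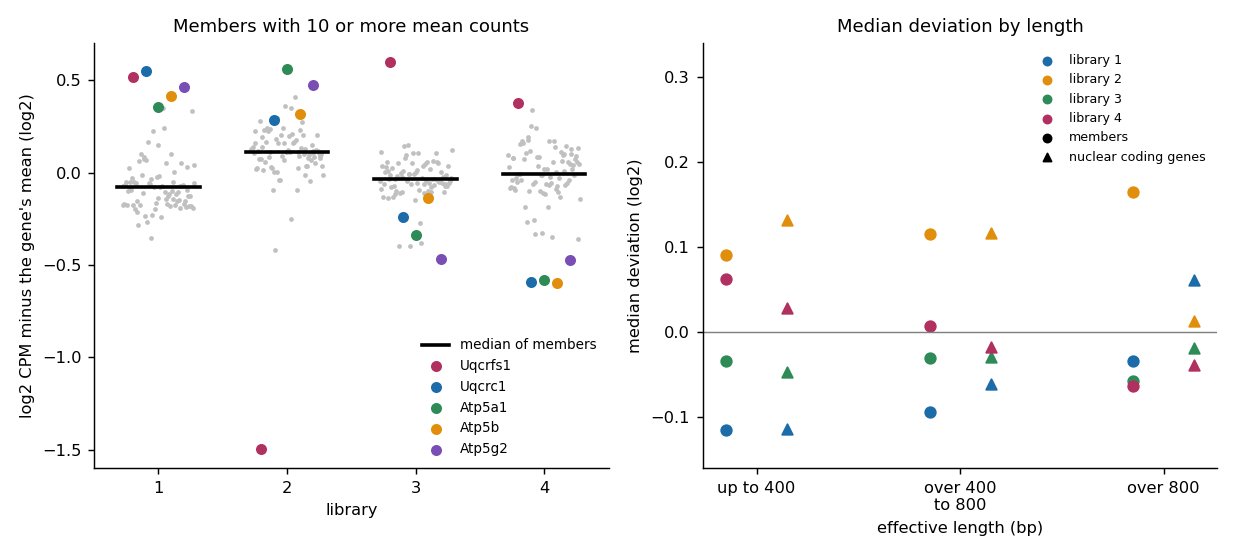
Left, log2 CPM of each member in a library minus the mean of that gene over libraries, for 88 members, with the median of members as a black bar and 5 genes in colour. Right, median deviation of members and of nuclear coding genes by effective length, which puts library 2 above 0 in each length bin. Uqcrfs1 in library 2 lies 1.5 below its mean, and most other members within 0.5.

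The members as a whole also shifted a little by library. The median member deviated from its own mean by -0.08, 0.11, -0.04 and -0.01 on the log2 scale in libraries 1 to 4, against 0.02, 0.03, -0.01 and -0.02 over all tested genes. Library 2 was above the mean for 78 of 88 members and library 1 for 23, against 7097 and 6930 of the 13045 genes tested. Short coding genes of all kinds had similar medians. For members with an effective length (the number of positions at which a read can start) of at most 400 bp the medians were -0.12, 0.09, -0.03 and 0.06, and for all nuclear coding genes of that length -0.11, 0.13, -0.05 and 0.03. Above 800 bp the members had 0.16 in library 2 while the coding genes had 0.01. Library 1 also held the red cell markers given above, and their part in these shifts was not tested.

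Short genes and their pseudogene copies set limits on these levels. Searching the coding part of each member's leading coding transcript against annotated pseudogenes (at least 90% identity over at least 50% of its length) found 82 copies of 34 members, of which 26 reached 1 TPM and 10 reached 10 TPM. Copies held more than 50% of the summed TPM of member and copies for 5 members, Atp5g2, Ndufb4, Ndufa12, Cox7c and Atp5l. By expected counts this was so for 3 members, Atp5g2, Ndufb4 and Ndufa12.

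The extreme case was Atp5g2. Its copy Gm10175 on chromosome 7 (23946646 to 23947290), identical over the whole coding part, was listed at 494, 585, 667 and 568 TPM, against Atp5g2 at the much lower values above. Gm10175 held a mean of 1886 expected counts and Atp5g2 221. In the counts on the older annotation Gm10175 was at 20.3 TPM after scaling by length, while Atp5g2 stood at 204. The share of reads given to each of the identical sequences thus differed between tables.

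Other pairs were of the same kind. Ndufb4c on chromosome 15 (73809507 to 73809896) was at 205, 215, 220.3 and 219 TPM with 329.7 mean counts, while Ndufb4 had 102. Gm15920 was at 186 TPM beside Ndufa12 at 103 ± 13.00 TPM. For Gm12338 and Cox7c, 459 and 281 TPM came from 121 and 716 counts, so the higher TPM of the copy goes with a short gene model. Gm10221 was at 424 TPM beside Atp5l at 355, and the older annotation put Gm10221 at 17.4 TPM after scaling.

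The sequences below show how little separates member and copy. Each pair differs at 1 position of its coding part, given in capitals in a stretch of 30 bases (GENCODE M21, 5′ to 3′). For Atp5g1 and Gm10039 on chromosome 11 these are bases 370 to 399 of 408, and for Ndufab1 and Gm4459 on chromosome 7 bases 35 to 64 of 381, counted from the start codon.
Atp5g1: ttctgtttgatggtcGccttcctcatcctc
Gm10039: ttctgtttgatggtcAccttcctcatcctc
Ndufab1: tccggaggagacccgGggctctgcagtccg
Gm4459: tccggaggagacccgAggctctgcagtccg

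Gm10039 was at 43.2, 64.8, 70.1 and 45.2 TPM in libraries 1 to 4 and Gm4459 at 25.4, 18.01, 33.6 and 20.8. Both were lower than their members in every library, Atp5g1 by more than 4-fold and Ndufab1 by more than 4-fold in each. Reads outside the single differing base cannot be told apart by sequence within the coding part.

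**Figure D4:**
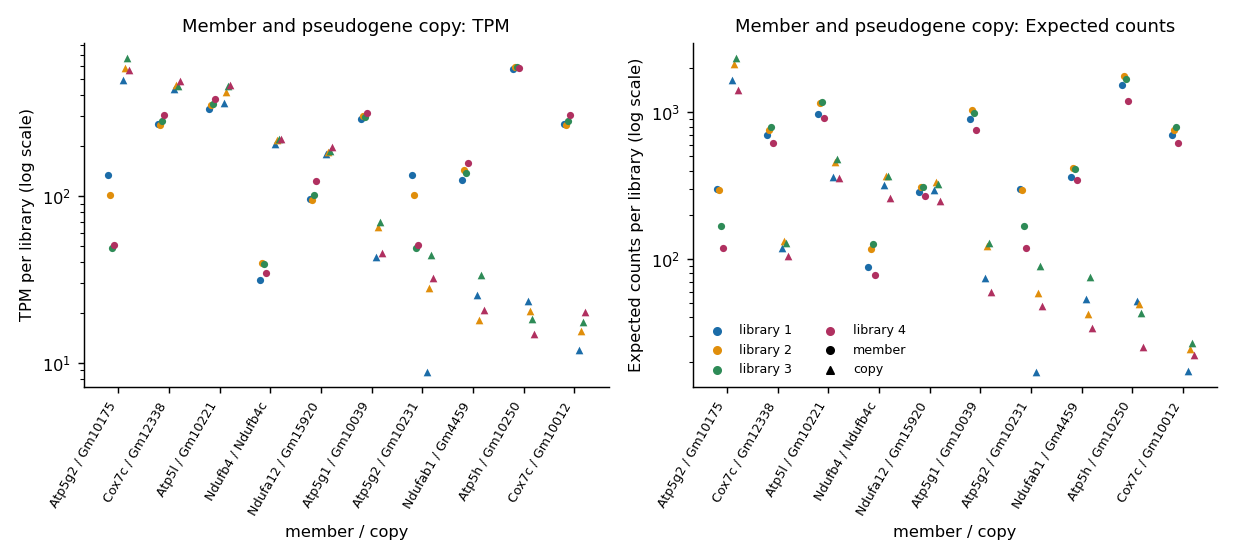
TPM (left) and expected counts (right), both on log scales, of the 10 copies at 10 TPM or more and of the members they copy, in 4 libraries, circles for members and triangles for copies. Copies of Atp5g2 (Gm10175) and Ndufb4 (Ndufb4c) exceed their members on both scales, whereas Gm12338 exceeds Cox7c in TPM only.

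The rule left out symbols with -ps and genes with no protein-coding transcript. Of those, Ndufb1-ps, annotated as a noncoding RNA of a bidirectional promoter, was at 68.6, 67.9, 74.8 and 85.4 TPM and Ndufab1-ps at 8.28, 4.13, 4.11 and 4.15 TPM. The rule left out 13 symbols of this kind in all, most of them near 0.

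Some of the leading transcripts of members were not annotated as coding. Of the 90 members with a mean of 1 TPM or more, 76 had a coding transcript as the one with the largest share of TPM and 14 did not, and in 85 the direct table named the same leading transcript. Ndufa3, the most abundant accessory gene of complex I, had 87.8% of its TPM on Ndufa3-204, annotated as subject to nonsense-mediated decay, and 6.77% on coding transcripts. For Atp5j the retained-intron transcript Atp5j-208 held 82.00% and coding transcripts 15.2%, and for Ndufa5 the processed transcript Ndufa5-204 held 81.4%. Over the 90 members the median coding share was 95.7% of TPM, so these are exceptions. Reads alone cannot show whether these RNAs are translated.

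The 3 quantifications gave different levels for single genes. After the median over coding genes was taken off, the median log2 ratio of the gene table to the direct table was -0.28 over members (n = 90), and that to length-scaled counts on the older annotation was -0.64 (n = 89), so most members were lower in the gene table. In the first comparison 3 members were beyond 1, against 3.10% of coding genes. Cox7b was at 134 TPM in the gene table and 353 in the direct table, Atp5k at 134 and 318, and Ndufaf6 at 2.19 and 4.11. After these, the largest shifts were those of Ndufa3 (-0.93) and Cox7c (-0.92). In the second comparison 12 members were beyond 1, against 16.3% of coding genes. Both member counts are near or below these shares. The largest shifts were those of Cox7a2l (1.80, higher in the gene table), Atp5k (-1.59), Cox7a1 (-1.49), Ndufaf6 (-1.44) and Ndufa5 (-1.34).

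**Figure D5:**
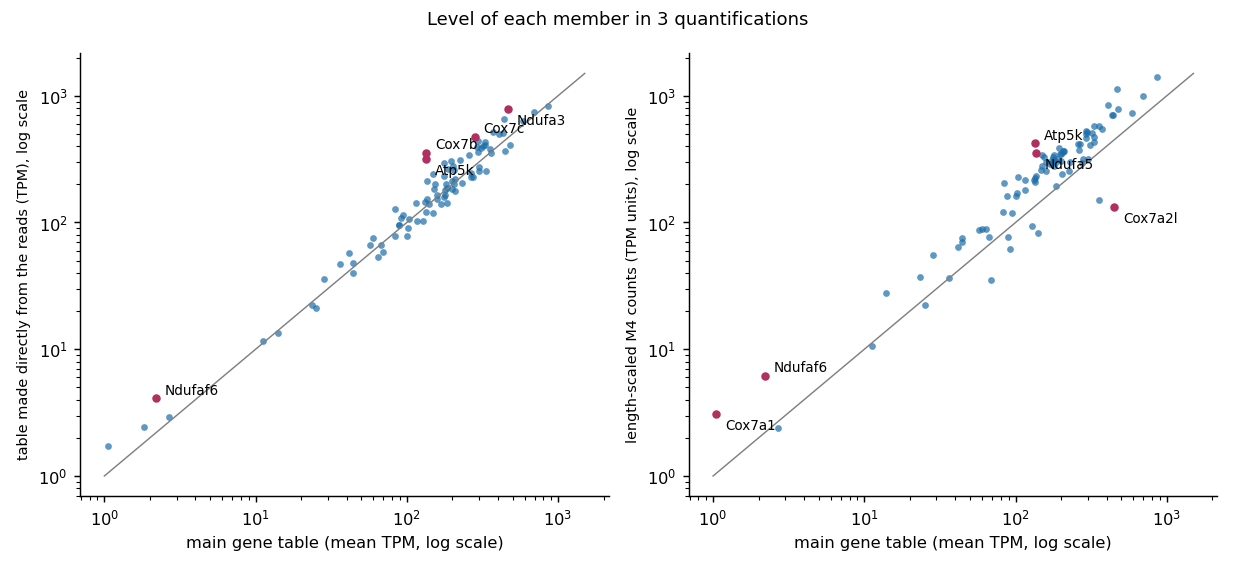
Mean level of each member with at least 1 TPM in the gene table (x axis, log scale) against the direct table (left) and length-scaled counts on the older annotation (right), with the line of equal values and the 5 members named by the largest shift in each comparison. Cox7a2l lies below the line on the right, and Cox7b and Atp5k above it on the left.

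The members share short transcripts. Their median effective length was 529 bp (members at 1 TPM or more), against 2078 bp for nuclear coding genes at 1 TPM or more. Members had higher medians than coding genes in each length bin. Members of up to 400 bp had a median of 202 TPM (n = 28) against 89.7 for coding genes of that length (n = 209), members over 400 to 800 bp 175 (n = 35) against 51.1 (n = 786), and members over 800 bp 116 (n = 27) against 16.9 (n = 9541).

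Promoter windows from RefSeq (GRCm38.p6, 250 bases before to 50 after a gene's start) were matched for 78 of 97 symbols, in 83 windows. The motif of NRF1, a regulator of respiratory genes, has the core GCGCANGCG and was found on either strand in 30.1% of member windows, in 6.25% of all promoters and in 14.2% of promoters of nuclear coding genes at 1 TPM or more. The ETS core CCGGAAG, which GABP binds, was found in 25.3%, 8.86% and 19.6%, and the YY1 core AANATGG in 26.5%, 16.1% and 15.8%. Windows with both the NRF1 and the ETS core made up 8.43% of member windows, 1.21% of all promoters and 3.31% of those of expressed coding genes. Median GC content was 58.3% in member windows, 52.7% in all promoters and 60.7% in expressed coding genes. A match says only that these letters are present.

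By role, the NRF1 core was in 9 of 29 windows of the accessory complex I genes, 7 of 16 of ATP synthase, 2 of 3 of complex II, 2 of 5 of complex III, 1 of 10 of the common complex IV genes and 0 of 5 of the complex I core. The stretches below are shown because they hold both cores upstream of the RefSeq start in the gene's direction, capitals marking the cores, of which CTTCCGG is the ETS core read on the other strand.
Atp5h: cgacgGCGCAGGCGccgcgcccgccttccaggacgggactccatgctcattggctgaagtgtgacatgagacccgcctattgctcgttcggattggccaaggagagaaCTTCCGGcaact
Sdhd: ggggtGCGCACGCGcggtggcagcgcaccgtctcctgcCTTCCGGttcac

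The Atp5h stretch is chr11:115419946-115420065 on the minus strand and the Sdhd stretch chr9:50603884-50603933 on the minus strand. The gene model of Atp5h given above starts further upstream than the RefSeq start, and the ETS core lies inside that model. Binding of either factor was not measured.

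Genes outside the symbol rule complete the pathway. The 13 mitochondrially encoded subunit genes, which the rule does not include, had a median of 2102 ± 199 TPM and library medians of 1823, 2175, 2289 and 2123, lowest in library 1. All 13 passed the test between libraries, on a median of 11584 counts, against 68.4% of all 13045 genes tested. Cytochrome c, encoded by Cycs, carried 23.4, 23.00, 26.6 and 28.8 TPM, and its testis form Cyct 0, 0, 0.270 and 0 TPM. The 28 listed assembly factors not covered by the rule had a median of 26.3 ± 4.52 TPM, led by the copper chaperone gene Cox17 at 167 ± 14.8 TPM. Of these, 16 of 28 passed the test (57.1%), below the share of 68.4% over all genes tested. Among the 10 listed regulators of mitochondrial genes, Nrf1 was at 77.5, 64.8, 66.2 and 58.2 TPM and Tfam, the packaging factor of mitochondrial DNA, at 50.3, 54.1, 70.1 and 74.5 TPM. Ppargc1a, a coactivator of mitochondrial biogenesis, had 0.160, 0.110, 0 and 0.130 TPM, whereas its relative Ppargc1b had 8.64, 6.67, 8.95 and 8.11 TPM.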

How the data were processed

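PolyA RNA-seq of 1 sample in 4 technical libraries was analysed. The authors deposited gene and transcript tables with expected counts, TPM and, for transcripts, the percent of the gene, per the file headers, from a transcriptome alignment (mm10, GENCODE M21). Another deposited table (the direct table) holds estimated counts and TPM made from reads and an index. The last deposited table holds raw counts for GENCODE M4 genes, from a genome alignment. Programs and strand setting were not given in the sources used here. Entries other than annotated genes (tRNA, spike-in and phiX, with 0.133% to 0.504% of expected counts) were left out. TPM were used as deposited and direct TPM rescaled over coding genes. M4 counts (97 members matched) were divided by effective length (minimum 50 bp) and scaled to the TPM total.

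Expected counts were rounded and tested with a Poisson likelihood ratio chi-square (scipy 1.17.1) on TMM sizes (edgeR 4.0.16), in genes of 10 or more mean counts, with Benjamini-Hochberg adjustment at 0.05. DESeq2 1.42.0 gave the alternative size factors. The test was first tried on counts simulated from the same Poisson model, with changes planted in some genes. Those counts held no other variation beyond counting error, so the trial cannot show how the test behaves with more. Pairs were compared with an exact sign-flip permutation test on log2(TPM + 0.1). Pseudogene copies were found with blastn 2.17.0. Members and lists were chosen with earlier results of these data known. Genes were named by role, level, library span and table disagreement, as the highest and lowest per list, all core (1 is not reported here), complex II and complex III genes, isoform pairs, the 10 most abundant members and the F1 genes. Counting error alone sets the floor of 3 counts.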

Additional observations from a re-analysis of the deposited data

Results flagged for a closer look

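With 4 libraries, a library was singled out when its gap to the nearest other library took more of the range than Dixon's 95% critical value for 4 values allows. Chance flags about 1 in 20 groups of values, and 99 values were screened, of which 6 stood out. Ndufa6 had 425.94 TPM in library 4, above the other libraries. Ndufs1 had 87.75 TPM in library 3 and Cox5b 222.02 TPM in library 3, both above the rest. Uqcr11 had 247.6 TPM in library 1 and Uqcrc2 190.64 TPM in library 2, also above the rest. By TMM-scaled CPM most of these gene flags were not seen. Library 2 was highest for Ndufa6 (147 CPM against 137 in library 4). It was also highest for Ndufs1 (144 against 133 in library 3) and Cox5b (64.5 against 63.5 in library 3). Uqcr11 was nearly level in libraries 1 and 2 (53.9 and 53.6 CPM), whereas Uqcrc2 was still highest in library 2 (254 CPM). The median of the tissue forms of complex IV was 0.17 TPM in library 4 and 0 in the other libraries, which comes from a few counts. Uqcrfs1, with its low value in library 2, was not singled out by this rule, since the other 3 libraries are also spread.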

How the results depend on the processing

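The 86 members at 10 TPM were 86 with the direct table, 85 with length-scaled M4 counts and 88 at 1 TPM, and stayed 86 without any 1 library. Median TPM moved beyond the spread of libraries with length-scaled M4 counts: complex I core 178.1, accessory 272.0 and assembly 46.19, complex II 216.6 and its assembly 18.92, complex III 363.2, common complex IV 319.7, ATP synthase 425.5. With the direct table it moved for complex I accessory (175.0), complex II (142.1), its assembly (30.75), complex III (326.9) and common complex IV (390.6). The cause of these shifts between quantifications was not tested. In the gene table, complex IV fell to 170.4 with the tissue forms added, which are near or at 0. Leaving out 1 library gave 105.1 to 112.2 for the core of complex I, 165.5 to 169.9 for complex II, 241.9 to 247 for complex III, 275.3 to 292.4 for complex IV and 293.7 to 297.2 for ATP synthase. Members called between libraries numbered 61 of 88 with DESeq2 size factors (69.3%, against 68.3% of all genes). With no filter they numbered 57 of 94 (60.6%, against 37.2% of all genes). They numbered 78 of 88 with M4 counts (88.6% against 78.4%) and 65 of 89 with the direct table (73.0% against 62.4%). Without 1 library they numbered 40 to 62 (45.5% to 70.5%, against 54.4% to 61.8%). Of the 60, 23 were called in every fit without 1 library. That count was not made over all genes, so whether 23 is few or many cannot be said. All genes called numbered 7108 to 8132 without 1 library. The median deviation of library 4 was 0.00625 with DESeq2 size factors against -0.00653. The ratios of Cox7a2 to Cox7a2l (1.24) and Atp5g1 to Atp5g3 (-0.38) reversed with M4 counts. Pairs with the same sign in all libraries and a mean over 2 SD were 12 of 12, 10 to 12 without 1 library, and 7 of the 7 with both genes at 0.1 TPM. No paired analysis was possible because there is 1 group. An ATP synthase list without the empty Atp5o entry, an alternative chosen after seeing the data, had a median of 299 TPM. Limits: 4 technical libraries of 1 sample say nothing of variation between animals, and levels of members with identical copies depend on how reads were assigned.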
